A study of Mus musculus with 6 samples.

Results

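Glucocorticoids act on the pituitary through the glucocorticoid receptor, the product of Nr3c1, and 10 genes of this pathway were followed in pituitary glands of wild-type mice and of mice labelled Bmal1-/-, a label that stands for loss of the clock gene Bmal1 (Arntl). They are Nr3c1 itself, Hsd11b1, whose enzyme regenerates active glucocorticoid inside cells, and 8 genes whose transcription glucocorticoids raise in many tissues (Fkbp5, Tsc22d3, Sgk1, Ddit4, Mt1, Mt2, Sult1a1 and Cebpb). The genes were taken by name, as every probe set annotated to exactly 1 of these symbols. This gave 17 probe sets for 10 genes, out of 22690 probe sets and 12394 genes named by a single-gene probe set on the array. Of the 17, 16 passed the filter on dim probe sets, with at least 1 for each of the 10 genes.

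The arrays carried RNA of whole pituitary glands. The mice were C57BL/6J males, 8 to 12 weeks old, held in 12 h of light and 12 h of darkness and fed freely. All were killed by decapitation at zeitgeber time 12, when the lights go off. There were 3 arrays of wild-type mice (replicates 1 to 3) and 3 of mice labelled Bmal1-/- (replicates 4 to 6), and each array held a pool of 3 glands of 1 genotype. The labels name no allele or Cre driver for the Bmal1-/- mice, and pooling hides the differences between single animals. The design compares pituitary transcripts between these labelled genotypes at this hour.

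Corticosterone, the main glucocorticoid of mice, peaks around lights off in this nocturnal species, so the glands were taken at the part of the day in which the receptor is usually most occupied. The unliganded receptor waits in the cytoplasm in a chaperone complex built on HSP90. Once bound to hormone it enters the nucleus, raises genes with a glucocorticoid response element and represses others, among them the corticotroph hormone gene Pomc. Hormone levels were not among the data used here.

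The promoter windows of 9 of the genes were searched for glucocorticoid response elements, E-boxes and metal response element cores. Parts of some windows that held a match are printed below. The windows are those of RefSeq on build GRCm38.p6, from 250 bases before to 50 after a transcription start, 16 windows in all, of which Sgk1 has 6 and Tsc22d3 has 3. Capitals mark a palindromic glucocorticoid response element in Sgk1 (chr10:21993680-21993739, plus strand), a looser element followed by a metal response element core in Mt1 (chr8:94178969-94179088, plus strand), metal response element cores in Mt2 (chr8:94172478-94172597, plus strand) and an E-box, the element BMAL1 binds, in Fkbp5 (chr17:28486270-28486349, minus strand).
Sgk1: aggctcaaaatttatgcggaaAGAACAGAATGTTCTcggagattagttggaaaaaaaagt
Mt1: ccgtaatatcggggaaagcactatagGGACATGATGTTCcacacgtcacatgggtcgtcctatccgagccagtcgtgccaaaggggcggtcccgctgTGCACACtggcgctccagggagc
Mt2: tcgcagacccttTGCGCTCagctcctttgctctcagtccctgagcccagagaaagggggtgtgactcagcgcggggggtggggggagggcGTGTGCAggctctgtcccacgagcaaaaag
Fkbp5: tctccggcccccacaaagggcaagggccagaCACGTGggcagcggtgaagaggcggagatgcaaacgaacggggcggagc

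The palindrome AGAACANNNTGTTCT, searched on both strands, was found in 1 of the 16 windows, in Sgk1 with its first base 189 bases before the start, and in 3 of all 32851 RefSeq windows (0.00913%). The looser GNACANNNTGTNC also lies inside that Sgk1 match. It was found in 2 of the 16 windows, of Sgk1 and of Mt1, where it began 94 bases before the start, and in 0.475% of all windows. The E-box CACGTG was found in 2 of the 16 windows, of Sgk1 and Fkbp5, 246 and 169 bases before the start, and in 7.15% of all windows. Metal response element cores, TGCACNC or TGCGCNC, were found in 5 of the 16 windows (Mt1, Mt2, Hsd11b1, Sgk1 and Ddit4) and in 25.7% of all windows. These matches describe letters in a short window, and they say nothing of elements farther away.

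The values are MAS5 intensities on a linear scale, and n = 3 arrays per genotype throughout. Fold changes are differences of log2(intensity + 16), Bmal1-/- minus wild type, which understates changes of dim probe sets. A gene is said to have risen or fallen where limma's adjusted p, taken over all 13576 tested probe sets, was under 0.05. For some lists a count of genes with an unadjusted p under 0.05 is added. The share of all tested genes under that unadjusted level is not given here. It is at least the 5.66% that passed after adjustment, so such counts alone do not set a list apart. The number of arrays limits the precision. Arrays of 1 genotype correlated at 0.980 or more across tested probe sets, and arrays of different genotypes at 0.976 or less. The median intensity was 33.5 to 34.3 in the wild-type pools and 31.7 to 32.2 in those labelled Bmal1-/-, without overlap. The 3'/5' ratio of Actb, which reflects RNA integrity, overlapped between genotypes (log2 0.74 to 0.91 against 0.65 to 0.89). The single tested probe set of the targeted gene, Arntl, was higher on the arrays labelled Bmal1-/- (43.3 ± 7.29 against 114 ± 12.8, limma adjusted p = 0.000653). Where it lies relative to the deleted part was not given in the sources used here, so it does not check the labels.

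All 10 genes had a log2 fold change below 0, with a median of -0.62 and a range from -1.02 to -0.14. Over all 8033 tested genes 50.1% were below 0 and the median was -0.00034. By the test 5 of the 10 fell, namely Hsd11b1, Ddit4, Sult1a1, Cebpb and Fkbp5, and none rose. Across the array 5.66% of genes passed in either direction and 2.66% passed downward. Of the 16 tested probe sets all were below 0, 6 passed (5.54% of all probe sets passed in either direction and 2.78% downward) and 8 were lower without overlap (13.3%, and 25.9% without overlap in either direction). The genotypes did not overlap for these 5 genes and overlapped for the other 5, where 12.7% of tested genes were lower without overlap. After equal scaling of the array medians the same 5 genes passed, although the split of all called probe sets moved from 374 higher and 378 lower to 622 higher and 275 lower.

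**Figure D1:**
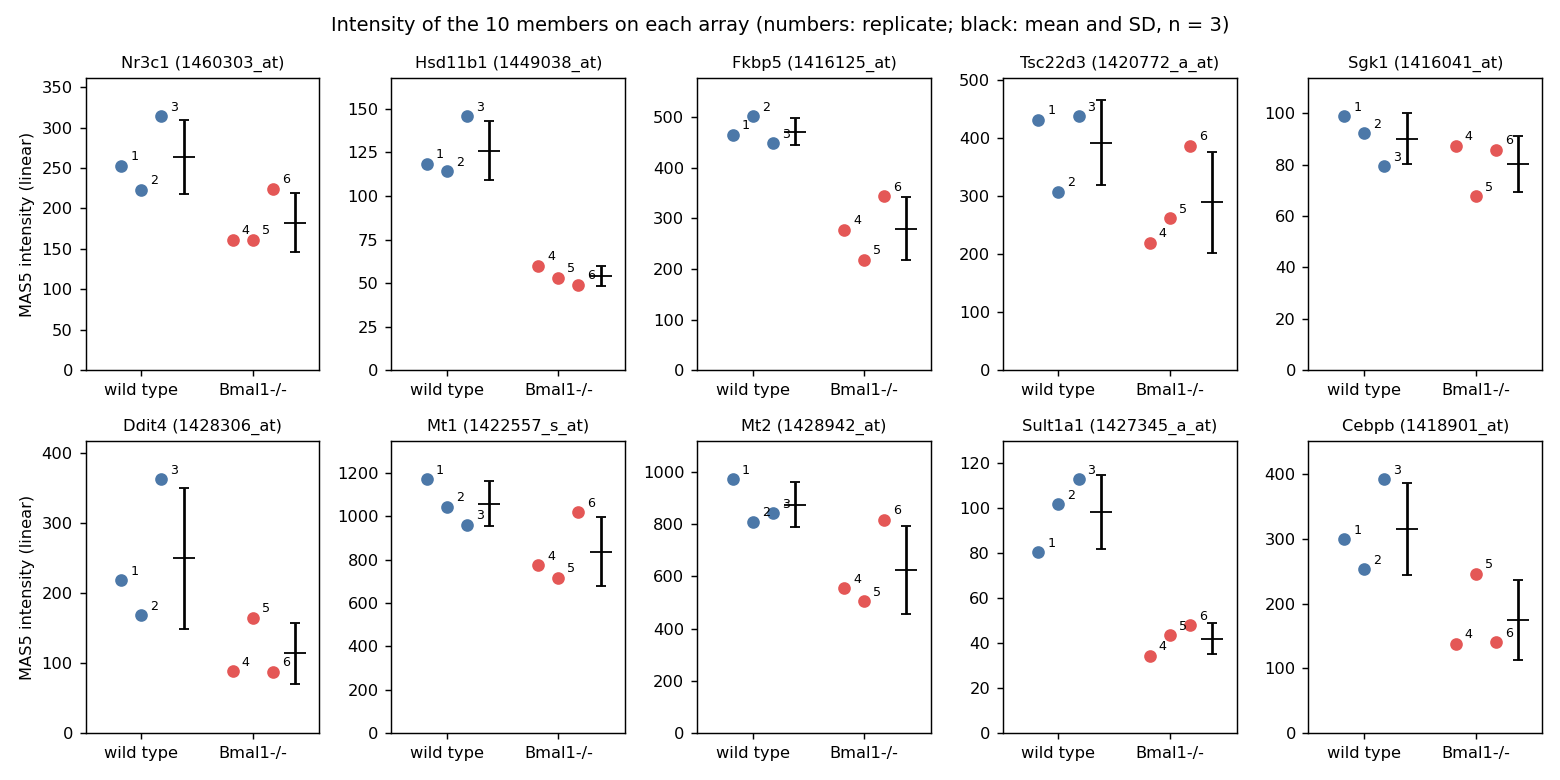
MAS5 intensity (linear, axes from 0) of the brightest tested probe set of each of the 10 genes on the 3 wild-type and 3 Bmal1-/- arrays, numbered by replicate, with the mean and SD in black. Hsd11b1, Fkbp5, Ddit4, Sult1a1 and Cebpb show no overlap between the genotypes, and the other 5 genes do.

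Nr3c1 encodes the receptor itself, which senses the hormone in nearly all cells. Its brightest probe set, 1460303_at, read 253.1, 223.3 and 313.7 in the wild-type pools and 161.1, 161.5 and 224.4 in those labelled Bmal1-/-. Replicate 6 lay just above wild-type replicate 2, and the other 2 Bmal1-/- arrays lay below every wild-type array. The means were 263 ± 46.1 and 182 ± 36.4, a log2 fold change of -0.50 (95% interval -0.81 to -0.19) that missed the threshold (limma adjusted p = 0.0639). Leaving out wild-type replicate 2 or Bmal1-/- replicate 6 took it past the threshold, and leaving out wild-type replicate 3 gave the largest adjusted p (0.219).

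The receptor's other 2 probe sets pointed the same way with different sizes. Probe set 1421866_at did not overlap between genotypes, with 47.2, 49 and 56.2 in wild type and 33.5, 26.6 and 38.7 on the other arrays (log2 fold change -0.45, adjusted p = 0.0945). Probe set 1421867_at overlapped, with 213.8, 188.9 and 298.5 against 180, 160.5 and 246.7 (log2 fold change -0.23, 95% interval -0.60 to 0.13, adjusted p = 0.467). On all 3 probe sets wild-type replicate 3 and Bmal1-/- replicate 6 were the highest arrays of their genotype.

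Hsd11b1 encodes the reductase that turns inert keto steroids back into corticosterone, so it adds to the hormone level within a cell. It fell by more than its replicate spread. Its probe set, 1449038_at, read 118.4, 114.2 and 145.6 in the wild-type pools and 60, 53.1 and 49.1 in those labelled Bmal1-/-. Every Bmal1-/- array was thus below every wild-type array, at 42.9% of the wild-type mean (126 ± 17.0 against 54.1 ± 5.51). The log2 fold change was -1.02 (SE 0.13, 95% interval -1.30 to -0.73, adjusted p = 0.000963). It passed in all 6 fits with 1 array left out, with adjusted p at most 0.00739.

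Other genes that make, convert or export corticosteroids gave few values. Of 12 listed, 10 were on the array and only 2 passed the brightness filter. H6pd, whose enzyme supplies NADPH to HSD11B1, read 74.0 ± 9.12 in the wild-type pools and 66.7 ± 8.94 in those labelled Bmal1-/- (log2 fold change -0.12, adjusted p = 0.658). Srd5a3, a steroid reductase family gene, read 57.5 ± 4.30 and 74.4 ± 1.69 (0.30, adjusted p = 0.175). Neither passed limma's test after adjustment, and 1 of the 2 had an unadjusted p under 0.05. Hsd11b2, which encodes the opposing, hormone-inactivating enzyme, was under the filter.

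Fkbp5 encodes FKBP51, a co-chaperone that lowers the receptor's affinity for hormone and is itself induced by the hormone, closing a feedback loop within the cell. It fell on both of its probe sets. The brighter, 1416125_at, read 465.2, 500.9 and 447.7 in the wild-type pools and 277.2, 218 and 343.9 in those labelled Bmal1-/-. No array of either genotype reached the range of the other, and replicate 6 was the highest of the Bmal1-/- arrays. The log2 fold change was -0.74 (SE 0.13, adjusted p = 0.00707), and it passed whichever array was left out (adjusted p at most 0.0299). The dimmer, 1448231_at, read 152, 205.4 and 226.3 against 102.8, 101.3 and 146.9 (-0.66, SE 0.16, adjusted p = 0.0324). That second call was lost in 4 fits, those leaving out wild-type replicates 2 and 3 and Bmal1-/- replicates 4 and 5 in turn (adjusted p up to 0.136), and also with no brightness filter (adjusted p = 0.0925) and without the intensity trend.

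Fkbp4, which encodes the paralogue FKBP52 that favours receptor activity, went the other way. It read 190.5, 140 and 152 in the wild-type pools and 247.4, 261.1 and 248.1 in those labelled Bmal1-/-, without overlap. This is 0.61 on the log2 scale (SE 0.11, limma adjusted p = 0.00920), and the call held without any 1 array (adjusted p at most 0.0459). Of the 11 tested genes of the FK506-binding protein family other than Fkbp5, only Fkbp4 passed, where 5.66% of all tested genes passed. The other 10 lay between -0.39 (Fkbpl) and 0.24 (Fkbp1b).

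The chaperones that hold the unliganded receptor ready for hormone were measured for 10 of 13 listed genes. Fkbp4, Hspa8 and Ahsa1 rose, none fell and 7 did not pass, where 3.00% of all tested genes passed upward. Hspa8, the constitutive HSP70 family member, read 2323 ± 316 in the wild-type pools and 3398 ± 293 in those labelled Bmal1-/- (log2 fold change 0.55, SE 0.09, adjusted p = 0.00564). Hspa8 did not pass without the intensity trend, nor with all its probe sets averaged (adjusted p = 0.141). Ahsa1, an activator of HSP90, rose by 0.31 on the log2 scale (adjusted p = 0.0456), a call that ended without any 1 of the 6 arrays and after quantile normalization. Hsp90aa1 itself lay at -0.20 (adjusted p = 0.399), but passed without wild-type replicate 2 and turned to 0.098 with its probe sets averaged. The list's median was 0.20.

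**Figure D2:**
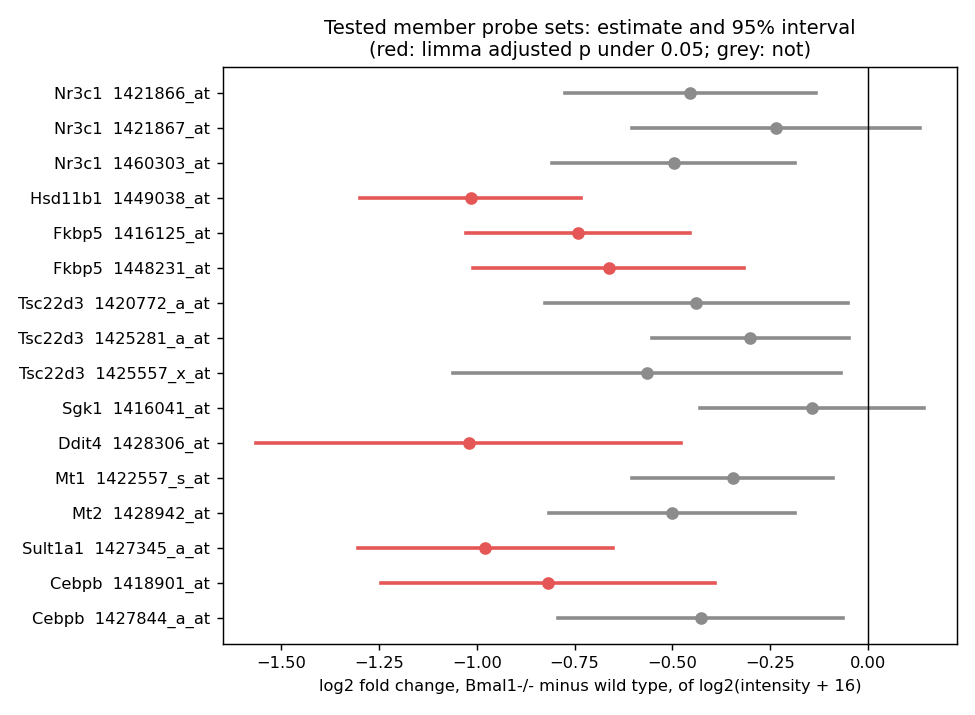
Log2 fold change, Bmal1-/- minus wild type, of the 16 tested probe sets of the 10 genes with 95% intervals, in red where the limma adjusted p was under 0.05. All 16 estimates are below 0, and the intervals of Sgk1 and of the Nr3c1 probe set 1421867_at reach above 0.

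Tsc22d3 encodes GILZ, a leucine zipper protein that carries part of the anti-inflammatory action of glucocorticoids. Its brightest probe set, 1420772_a_at, read 432.2, 308.3 and 437.7 in the wild-type pools and 220.3, 262 and 387.2 in those labelled Bmal1-/-. Replicate 6 lay above wild-type replicate 2, so the genotypes overlapped. The log2 fold change of -0.44 (95% interval -0.83 to -0.05) did not pass (limma adjusted p = 0.177), and it passed only without replicate 6, where it was -0.66. Probe set 1425281_a_at was lower without overlap (185.8, 213.8 and 252.2 against 159.5, 181.4 and 176.3) but did not pass (-0.30, adjusted p = 0.156). The dim probe set 1425557_x_at lay at -0.57 (adjusted p = 0.176).

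The relatives of Tsc22d3 did not share its sign as a group. Tsc22d1, which belongs to the same leucine zipper family, rose by 0.31 on the log2 scale (1751 ± 11.0 in wild type, 2174 ± 74.0 otherwise, SE 0.06, limma adjusted p = 0.0133). That call ended without Bmal1-/- replicate 5 (adjusted p = 0.0708) and without the intensity trend (adjusted p = 0.109). Tsc22d4 lay at -0.10 (adjusted p = 0.735).

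Sgk1 encodes a kinase downstream of insulin and steroid signals that controls sodium channels. It differed least of the 10. It read 98.7, 92.3 and 79.4 in the wild-type pools and 87.3, 67.7 and 85.8 in those labelled Bmal1-/-, and the genotypes overlapped. Of its 6 windows 1 holds the full palindrome printed above, and any effect of that element was not tested. The log2 fold change was -0.14, with a 95% interval from -0.43 to 0.14 (limma adjusted p = 0.586). Leaving out any 1 array kept it between -0.22 and -0.05.

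Ddit4 encodes REDD1, an inhibitor of the growth kinase mTOR that is induced by glucocorticoids, low oxygen and energy stress. It read 218.2, 168.8 and 363.2 in the wild-type pools and 88.5, 164.9 and 87.9 in those labelled Bmal1-/-. The genotypes came within a few units of each other, since the highest Bmal1-/- array, replicate 5, lay just under wild-type replicate 2. The mean of the Bmal1-/- arrays was 45.5% of the wild-type mean, and the log2 fold change was -1.02 (SE 0.25, adjusted p = 0.0355). This SE was the largest of the 16 probe sets. The call was lost with robust eBayes and in 4 fits, those leaving out wild-type replicates 1 and 3 and Bmal1-/- replicates 4 and 6 in turn (adjusted p up to 0.129).

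Genes of the kinase pathways around Sgk1 and Ddit4 were tested for 19 of 24 listed. Ndrg1, a substrate of SGK1, and Sesn3, a stress-induced inhibitor of mTOR, rose, none fell and 17 did not pass. Over all tested genes 3.00% passed upward, and the list's median was -0.08. Ndrg1 went from 135 ± 10.6 to 194 ± 26.9 (log2 fold change 0.48, adjusted p = 0.0365) and Sesn3 from 297 ± 34.5 to 402 ± 11.5 (0.42, adjusted p = 0.0239). Ndrg1 kept its call only without Bmal1-/- replicate 6 and Sesn3 only without wild-type replicate 2, among the 6 fits with 1 array left out (highest adjusted p 0.132 and 0.0904).

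Mt1 and Mt2 encode metallothioneins, small cysteine-rich proteins that bind zinc and copper, and both are induced by metals as well as by glucocorticoids. Mt1 read 1172.1, 1044.4 and 962.5 in the wild-type pools and 775, 717 and 1020.2 in those labelled Bmal1-/- (probe set 1422557_s_at). Mt2 read 972.5, 809.9 and 842.1 against 553.6, 504.3 and 817.4. In both genes replicate 6 alone lay within the wild-type range, and replicates 4 and 5 lay below it. The log2 fold changes were -0.35 for Mt1 (95% interval -0.60 to -0.09, limma adjusted p = 0.111) and -0.50 for Mt2 (-0.82 to -0.19, adjusted p = 0.0639), and neither passed. Without replicate 6 both passed, at -0.49 and -0.71.

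The second Mt1 probe set, 1451612_at, was under the brightness filter and read 3.4 to 18 in wild type and 4.1 to 11.8 on the other arrays. Of 7 tested genes of the metal response list, Slc39a14 fell and 6 did not pass, where 2.66% of all tested genes passed downward. The list's median was -0.24. Slc39a14, a zinc and iron importer, read 183.4, 176 and 218.1 in the wild-type pools and 79.1, 86.7 and 149.3 in those labelled Bmal1-/-. It was the only 1 of the 7 tested genes of this list to be highest on replicate 6 among the Bmal1-/- arrays. Its log2 fold change was -0.82 (SE 0.18, adjusted p = 0.0217). Leaving out any of wild-type replicates 1 and 3 and Bmal1-/- replicates 4 and 5 ended the call (adjusted p up to 0.0987). Mt3, the brain metallothionein, lay at -0.09 (adjusted p = 0.771).

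Sult1a1 encodes a cytosolic sulfotransferase that conjugates phenols and catecholamines. It fell, with 80.4, 101.7 and 112.9 in the wild-type pools and 34.3, 43.6 and 47.8 in those labelled Bmal1-/-. The genotypes were well apart, at 98.3 ± 16.5 and 41.9 ± 6.91. On the log2 scale the difference was -0.98 (SE 0.15, limma adjusted p = 0.00319), and it passed without any 1 array (adjusted p at most 0.0228). Sult1a1 lies within 20 Mb of Arntl on chromosome 7, a region in which 21 of 186 tested genes were called (11.3%, Arntl left out), 13 of them lower, against 5.52% of genes elsewhere. The effect of that position on Sult1a1 was not tested. Of 6 tested sulfotransferase and sulfate donor genes besides it none passed limma's test and 0 had an unadjusted p under 0.05, and they lay between -0.33 (Sult4a1) and 0.29 (Papss2).

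Cebpb encodes a bZIP transcription factor of the acute phase response, fat cell formation and gluconeogenesis. It fell on its brightest probe set, 1418901_at, with 299.3, 252.8 and 392.4 in the wild-type pools and 137.9, 246.3 and 140.5 in those labelled Bmal1-/-. As with Ddit4, replicate 5 stood just below wild-type replicate 2 while replicates 4 and 6 were far lower. Replicate 5 was also the highest Bmal1-/- array for 9 of 12 tested immediate early genes, where it was highest for 31.5% of all tested genes. Any link of these genes to Ddit4 and Cebpb was not tested. In the fit without replicate 5 Ddit4 and Cebpb passed, at -1.29 and -1.07. With all arrays Cebpb lay at -0.82 on the log2 scale (SE 0.20, limma adjusted p = 0.0325). As for Ddit4, the call was lost with robust eBayes and when any of wild-type replicates 1 and 3 and Bmal1-/- replicates 4 and 6 was left out (adjusted p up to 0.138). On the second probe set, 1427844_a_at, replicate 5 (69.7) lay inside the wild-type range of 68.5 to 80.2, and the log2 fold change of -0.43 did not pass (adjusted p = 0.163). Of 3 other C/EBP genes tested none passed and 1 had an unadjusted p under 0.05, with Cebpd at -0.22 (adjusted p = 0.298) and Cebpg at -0.26 (adjusted p = 0.230).

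A wider list of 28 other glucocorticoid-induced genes gave 20 tested genes, of which 2 fell and none rose, where 2.66% of all tested genes passed downward. By limma 7 of the 20 had an unadjusted p under 0.05, a level for which the share of all tested genes is not given. Of the 20, 15 lay below 0, around a median of -0.20, where 50.1% of all tested genes lay below 0. Lcn2, an iron-siderophore carrier of innate immunity, read 490.7, 294.2 and 338.9 in the wild-type pools and 106.3, 139.1 and 106.9 in those labelled Bmal1-/- (log2 fold change -1.53, limma adjusted p = 0.000221). Per1, a clock gene that both BMAL1 and the receptor drive, read 120.3, 88.4 and 117 against 71.6, 65.3 and 73 (-0.53, adjusted p = 0.0393). The Per1 call ended without any 1 array but wild-type replicate 2 (highest adjusted p = 0.139) and after equal scaling of the array medians. The list thus held genes on both sides of 0, from Lcn2 to 0.45 for Cdkn1a, which did not pass.

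Other parts of the axis are given beside the 5.66% of all tested genes that passed in either direction. Of 8 tested coregulators and related receptors none passed limma's test and 2 had an unadjusted p under 0.05, with the smallest p-values at Smarca4 (log2 fold change 0.29, adjusted p = 0.101) and Med1 (0.27, adjusted p = 0.214), and 9 of the 17 listed were absent from the test. Of 10 tested corticotroph genes Pcsk1, the convertase that cuts the POMC precursor, fell from 419 ± 47.9 to 291 ± 32.0 (-0.50, adjusted p = 0.0194) and 9 did not pass. Pomc was lower without overlap but did not pass, at 11566.8, 9835.5 and 10688.9 in wild type against 9774.1, 8677 and 8709.9 (log2 fold change -0.24, SE 0.07, adjusted p = 0.0731), and it passed without wild-type replicate 2. The Pcsk1 call ended without wild-type replicate 3 or Bmal1-/- replicate 5 (highest adjusted p = 0.0864). None of the 12 inflammatory genes listed as repressed by glucocorticoids was bright enough to be tested, although all 12 were on the array. Of 12 tested immediate early genes, which respond within minutes to many stimuli, none passed limma's test, 2 had an unadjusted p under 0.05, and their median was -0.18. Ccn1 (-0.56, adjusted p = 0.0596) and Btg2 (0.36, adjusted p = 0.164) had the smallest p-values. Among the Bmal1-/- arrays replicate 5 was the highest for 9 of the 12, where it was highest for 31.5% of all tested genes. Fos read 164, 681 and 127.3 on replicates 4 to 6 and Egr1 read 359, 1330.1 and 306.8. The wild-type arrays were also spread, with Fos at 120.2, 350.2 and 399.8 and Egr1 at 357.2, 1107.5 and 966.8.

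**Figure D3:**
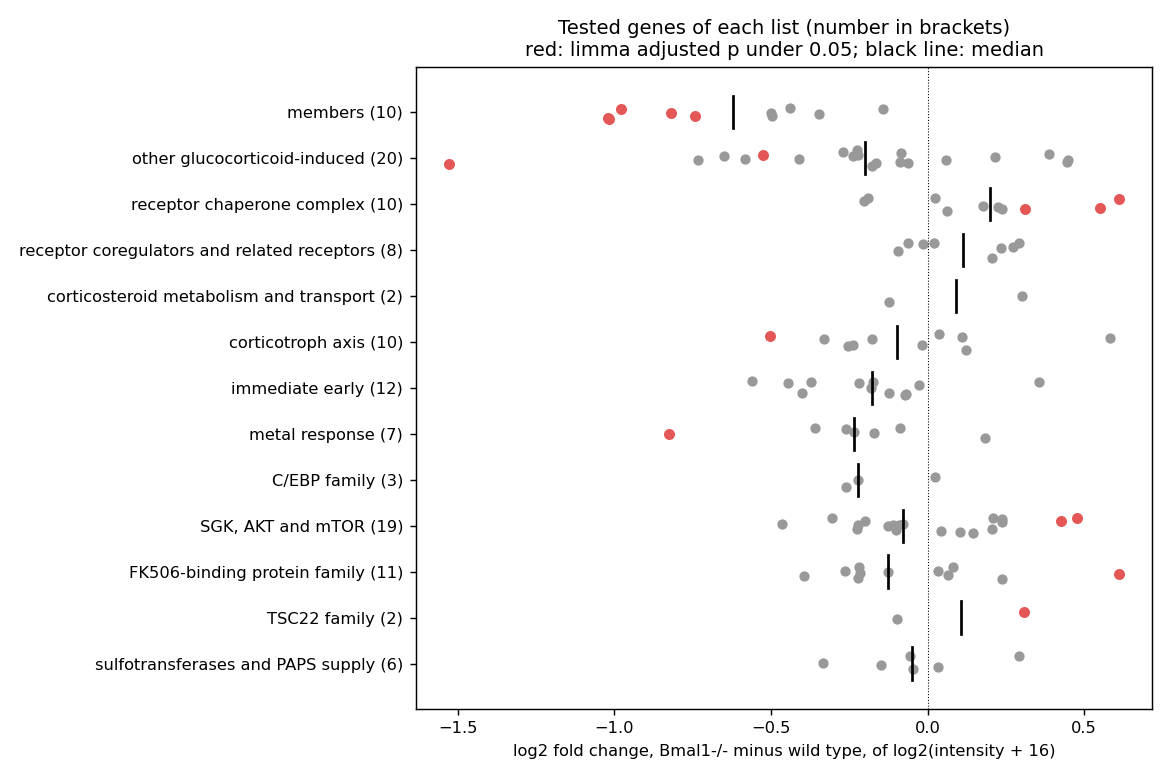
Log2 fold change, Bmal1-/- minus wild type, of every tested gene of the 10 chosen genes (top line, called members) and of 12 related lists, with the number tested in brackets, calls in red and the median as a black line. The chosen genes have the lowest median, -0.62, and the chaperone list has a median of 0.20 with its 3 calls on the right.

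Markers of the gland's cell types were read beside these values. In a whole gland fewer cells of a type and less RNA per cell cannot be told apart. Over all tested genes 2.66% passed downward and 3.00% upward. Of 8 macrophage markers 7 were tested, all 7 were below 0 and C1qa passed, a call that ended without any 1 of the 6 arrays (highest adjusted p = 0.0891). Their summed intensity, to which Ctss gave the most, was 846 to 885 in the wild-type pools and 660 to 744 in those labelled Bmal1-/-. These sums did not overlap, and Aif1 was under the filter. Of 8 pericyte and fibroblast markers 7 were tested, and Dcn and Rgs5 fell while Col1a2 rose. Their summed intensity was 1994 to 2100 and 1647 to 1685, without overlap, and Cspg4 was under the filter. Dcn and Rgs5 passed whichever array was left out, and Col1a2 only without wild-type replicate 2 (highest adjusted p = 0.141). Of 5 corticotroph and melanotroph markers 3 were tested, none passed limma's test and 1 had an unadjusted p under 0.05. Their sums, nearly all from Pomc, were 9958 to 11711 and 8795 to 9904. All 8 endothelial markers were tested, with sums of 589 to 690 and 692 to 785, and of these Plvap rose, without wild-type replicate 2 or Bmal1-/- replicate 6 as well as with all arrays, but in no other such fit (highest adjusted p = 0.103).

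Some hormone cell markers shifted as well. All 3 tested somatotroph markers fell (Gh, Dlk1 and Ghrhr), and Pou1f1 was not among those tested. Their sums, to which Gh gave the most, were 25576 to 27423 in wild type and 20952 to 22829 otherwise, without overlap. Ghrhr, whose receptor drives growth hormone release, lay at -0.66 (limma adjusted p = 0.00553) and passed whichever array was left out. Gh (-0.27, adjusted p = 0.0217) lost its call when any of wild-type replicates 1 and 3 and Bmal1-/- replicates 5 and 6 was left out, and Dlk1 (-0.29, adjusted p = 0.0363) passed only without Bmal1-/- replicate 4. Neither passed after quantile normalization. Of 3 genes listed as thyrotroph markers Cga fell (-0.31, adjusted p = 0.0190). Tshb (-0.04, adjusted p = 0.814) and Trhr (0.12, adjusted p = 0.731) did not pass, so the list did not shift as a whole. Their sums, to which Cga gave the most, were 13680 to 15530 and 11536 to 12932. The Cga call was lost after quantile normalization and when any of wild-type replicate 3 and Bmal1-/- replicates 4 and 6 was left out. Of 7 tested folliculostellate and stem cell markers Cpxm2 (1.27) and Aldh1a2 (0.58) rose and Cyp2f2 (-0.81) fell, each in every fit with 1 array left out, and the sums overlapped (1676 to 2016 and 1604 to 1736), with S100b not tested. Mbp, the 1 tested pituicyte and posterior lobe marker of 7, rose (0.52, adjusted p = 0.0210), a call lost when any of wild-type replicate 3 and Bmal1-/- replicates 4 and 5 was left out. None of the 4 gonadotroph, 2 lactotroph or single erythroid, lymphocyte and adipocyte markers tested passed limma's test, with unadjusted p under 0.05 for 1 gonadotroph and 1 lymphocyte marker. The part of these shifts in the fall of Hsd11b1, Fkbp5 and the other genes was not tested.

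Within a genotype the 10 genes did not move as 1 block. Each array's deviation from its genotype mean was taken on the log2 scale, and Pearson's r was computed over the 6 arrays for the 45 pairs of genes. It was above 0 for 29 of the 45, with a median of 0.21, where 50.1% of all pairs of tested genes were above 0. The pairs share the same arrays and their scaling, and no pair passed an exact permutation test within genotypes after Benjamini-Hochberg adjustment over the 45 (lowest adjusted p = 0.625). The smallest raw p that 36 orders allow is 0.0278.

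**Figure D4:**
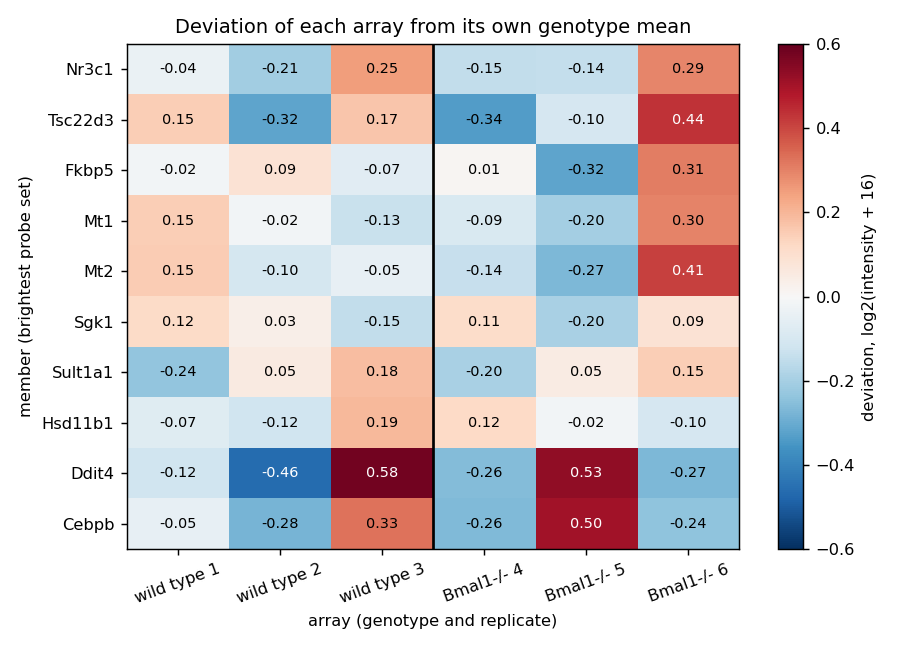
Deviation of each array from its own genotype's mean for the 10 genes, on the log2(intensity + 16) scale, with wild-type arrays on the left and Bmal1-/- arrays on the right. Among Bmal1-/- arrays Ddit4 and Cebpb are highest on replicate 5, and Nr3c1, Tsc22d3, Fkbp5, Mt1, Mt2 and Sult1a1 on replicate 6. Among wild-type arrays Nr3c1, Hsd11b1, Tsc22d3, Ddit4, Sult1a1 and Cebpb are highest on replicate 3.

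The closest pair was Ddit4 and Cebpb (r = 0.97, rho = 0.89, exact permutation p = 0.0556 and 0.0833), and r was 0.99 without the 2 farthest arrays. Here and below, these are the 2 arrays farthest from the median deviation of the gene named first. An r without them rests on so few arrays that it cannot decide whether a relation holds. Next came Mt1 and Mt2 (r = 0.96, rho = 0.83, exact permutation p = 0.0556 and 0.139), where r was 0.35 without Bmal1-/- replicate 6 and wild-type replicate 1. Nr3c1 and Tsc22d3 followed (r = 0.89, rho = 0.94, exact permutation p = 0.0278 for each), with r = 0.90 without the 2 farthest arrays.

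The lowest pairs set Ddit4 and Cebpb against Sgk1 and Fkbp5. Sgk1 and Cebpb had r = -0.91 (rho = -0.49, exact permutation p = 0.0833 and 0.417) and Sgk1 and Ddit4 r = -0.89 (rho = -0.37, exact permutation p = 0.111 and 0.583), but without Bmal1-/- replicate 5 and wild-type replicate 3 both turned positive (0.94 and 0.97). Fkbp5 and Cebpb had r = -0.82 (rho = -0.83, exact permutation p = 0.0833 and 0.111). Without Bmal1-/- replicates 5 and 6 their r was -0.95, a value set by the wild-type arrays alone. After adjustment over the 45 pairs these exact permutation p-values were between 0.625 and 0.917.

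Array by array, Bmal1-/- replicate 6 was the highest of its genotype for 6 of the 10 genes, and wild-type replicate 3 was the highest of its own for 6. Over all tested genes these arrays were highest for 35.1% and 32.6%. Wild-type replicate 2 was the lowest of its genotype for 6 of the 10 genes, against 32.9% of all tested genes. Leaving out Bmal1-/- replicate 6 raised the number of the 10 that passed from 5 to 7, as Nr3c1, Tsc22d3, Mt1 and Mt2 passed and Ddit4 and Cebpb did not. Hsd11b1, Fkbp5 and Sult1a1 passed in all 6 fits with 1 array left out, and Sgk1 in none.

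**Figure D5:**
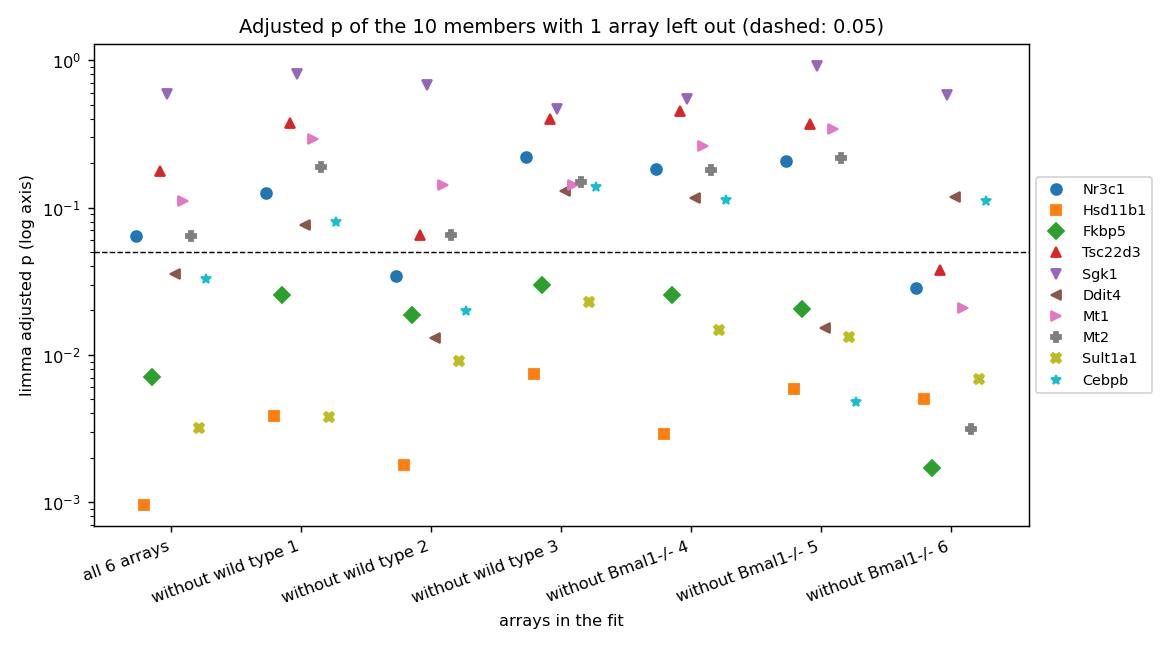
Limma adjusted p (log axis) of the brightest probe set of each gene with all 6 arrays and with each array left out, with 0.05 dashed. Hsd11b1, Fkbp5 and Sult1a1 stay under the line in every fit, and the metallothioneins, Nr3c1 and Tsc22d3 drop below it without Bmal1-/- replicate 6.

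The tested genes whose within-genotype pattern over the 6 arrays was most like that of Nr3c1 were Crem (r = 0.998), Bex3 (0.997) and Gpbp1l1 (0.994). Crem, a cAMP-responsive transcription factor gene, read 261.7, 219.5 and 349 in the wild-type pools and 184.8, 188.4 and 279 in those labelled Bmal1-/-, with the same highest array in each genotype as Nr3c1. Those most like Fkbp5 were Aamp (0.998), Frmd6 (0.994) and Pbrm1 (0.994). None of these 6 genes changed by the test between genotypes (limma adjusted p from 0.263 to 0.787). They were picked as the highest of 8032 values each, over 6 arrays, and are a description.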

How the data were processed

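Biotin-labelled cRNA from 1 ug of total RNA per pool was hybridised to an Affymetrix mouse array. Per the submitters' processing notes the deposited intensity values come from MAS5, which subtracts a mismatch-based background, so dim values are noisy. Version and detection calls: not given in the sources used here. The mean after trimming 2% of probe sets at each end was 100.0 on every array.

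Of 22690 probe sets, 64 array controls were left out and 691 annotated to several genes were not named. The rest were transformed as log2(intensity + 16), and the brightest 60% by mean over the 6 arrays were tested with limma 3.58.1 in R 4.3.3 (lmFit, eBayes with an intensity trend, two-sided, Benjamini-Hochberg over 13576 probe sets, threshold 0.05). The procedure was tested on simulated data, in 10 runs. It recovered 33.7% of log2 changes of 0.5, 94.2% of those of 1 and 99.8% of those of 2. False calls were 5.73% of calls. The share of changed probe sets in the runs was not matched to these data. A change near 0.5 that did not pass is thus not shown to be absent. A gene is represented by its brightest tested probe set. Correlations used exact permutations within genotypes, two-sided.

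The genes, lists and tests were chosen with earlier results of these data known. Named were all 10 genes, up to 4 called genes per related list or otherwise the 2 with the smallest p, and the 3 genes most like Nr3c1 and Fkbp5. Hsp90aa1, Fkbpl, Fkbp1b, Tsc22d4, Mt3, Hsd11b2, Cdkn1a, Pomc, Fos and Egr1 were named after their values were seen. Each array was left out in turn, and the fit was repeated with robust eBayes, array weights, no trend, no filter or a top 40% filter, averaged probe sets, equal medians, quantile normalization, and a pseudocount of 1 or 64.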

Additional observations from a re-analysis of the deposited data

How the results depend on the processing

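All 10 genes stayed below 0 in the main fit and in its 16 alternatives. The same 5 passed with pseudocounts of 1 and 64, quantile normalization, equal medians, the top 40% of probe sets, array weights and averaged probe sets. The number fell to 3 (Hsd11b1, Fkbp5 and Sult1a1) with no filter, without the intensity trend and with robust eBayes. It ranged from 3 to 7 with 1 array left out. The count of changed probe sets over the array was 330 with no filter and 407 without the trend, against 752, and 312 to 939 with 1 array left out. Of the genes in the related lists 10 passed, against 4 with no filter, 2 without the trend and 3 to 13 with 1 array left out. The cause of these differences was not tested, though fits with 1 array fewer have fewer samples. The count of gene pairs with r above 0 was 29, and 23 to 30 with 1 array left out. The 4 with no filter were Lcn2, Hspa8, Fkbp4 and Tsc22d1, and the 2 without the trend were Lcn2 and Fkbp4. The log2 fold change of Aamp, which was not called, ran from -0.032 to 0.14 with 1 array left out and was below 0 without Bmal1-/- replicate 6. Neither was Fos called, which ran from -0.77 to 0.37 with 1 array left out and lay at 0.088 with array weights, nor Mt3, which ran from -0.20 to 0.076. Hsp90aa1 turned to 0.098 with averaged probe sets. No paired analysis was possible because the genotypes share no replicate numbers. MAS5 signal over background limits the dim probe sets, among them the second Mt1 probe set and all 12 inflammatory genes.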
